A study of Homo sapiens with 11 samples.

Results

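HCT116 is a human colorectal carcinoma cell line, and the second harvest of 4 HCT116 lines that overexpress gelsolin was compared with the first harvest of the same lines. The lines C1, C2, C3 and C8 were made by stable transfection with human cytoplasmic gelsolin in the plasmid pIRES2-EGFP, and the vector lines V4 and V5 with the plasmid alone. Total RNA was hybridized to Illumina HumanRef-8 beadchips, which report 1 average bead signal for each probe. The members are the 8 arrays of the 4 gelsolin lines, of 11 arrays in the series, and they were chosen by the replicate number in the labels, 4 labelled replicate 1 and 4 labelled replicate 2. They form 4 pairs, 1 per line, and the methods call the duplicates of a line independent harvests. V4 also has both harvests and served as the reference, whereas V5 has 1 array, which is labelled replicate 1 but lies on the beadchip of the second harvests. All lines carry the same plasmid backbone, in which a cytomegalovirus promoter drives the insert and EGFP, and were kept in G418, the drug that selects for it. The labels call the gelsolin lines clones, so differences among lines include differences among clones.

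All first harvests of C1, C2, C3, C8 and V4 were run on 1 beadchip and all second harvests on another, so the harvest and the beadchip cannot be told apart. Gelsolin severs and caps actin filaments in a calcium-dependent manner and thereby shapes the cortex and protrusions of moving epithelial cells. Harvests of a stable line share their genome and transgene. They can differ in cell density, in nutrients, in secreted factors and in the handling of the RNA, none of which the labels record. Bulk RNA cannot tell fewer cells in a given state from less RNA per cell.

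GSN, the gene of gelsolin and the transgene of these lines, was measured first as a check of the labels. The position of its probe was not checked, so it is not known whether the probe reads the transcript of the transgene, which holds the coding sequence, or that of the endogenous gene alone. Its normalized signal (each array divided by its median and multiplied by the common median of 88.35) went from 217 to 235 in C1, from 187 to 208 in C2, from 205 to 215 in C3 and from 259.8 to 271 in C8. All 8 gelsolin arrays lay above the V4 arrays, at 141 and 141, and the V5 array, at 140.2. GSN was slightly higher in the second harvest of each of the 4 lines, by a mean log2 change of 0.10 (SE 0.10, adjusted p = 0.739) from limma. An exact sign-flip test over the 4 lines gave p = 0.125, two-sided, which is the smallest value that 4 pairs can give. The 95% interval of the change ran from -0.13 to 0.32, so no change in GSN between the harvests was detectable with 4 lines.

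The label of an epithelial tumour line was checked against its markers. All 10 colorectal epithelial markers were on the array and 9 passed the filter on dim probes, with a summed signal of 25005 to 32591 in the first and 28434 to 35280 in the second gelsolin harvests. Of the markers of other cell types, 7 of 8 for fibroblasts, 7 of 9 for leukocytes and 5 of 6 for endothelium stayed below the common median on all 11 arrays. The median signal of an array before scaling was 86.3 to 93.9 in the first and 80.1 to 105 in the second gelsolin harvests. No background was subtracted from the signals, so the changes of dim genes are understated.

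Across the whole transcriptome the harvests of a line were close to each other. Over 10116 genes tested, the log2 signals of the 2 harvests correlated with an r of 0.979 in C1, 0.984 in C2, 0.986 in C3, 0.985 in C8 and 0.988 in V4, a correlation across genes, which are not independent replicates. The median absolute log2 difference between the harvests of a gelsolin line was 0.16 to 0.18. This was within the range between different gelsolin lines on 1 beadchip, which was 0.13 to 0.23 in the first harvest and 0.16 to 0.24 in the second. For a typical gene, the harvests of a line thus lay about as far apart as 2 gelsolin lines on 1 beadchip did. The 2 distances are unlike, because the harvests of a line lie on different beadchips and any beadchip effect enters only their distance.

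Large changes were few and were spread unevenly over the lines. In C1, 123 genes (1.22% of those tested) were at least 2-fold higher in the second harvest and 59 (0.583%) at least 2-fold lower. Among changes of at least 2-fold, C2 and C3 leaned towards lower levels. C2 had 19 genes higher (0.188%) and 56 lower (0.554%), and C3 had 14 higher (0.138%) and 56 lower (0.554%). C8 leaned the other way, with 55 higher (0.544%) and 4 lower (0.0395%). V4 had the fewest in all, 7 higher (0.0692%) and 22 lower (0.217%). These counts come from 1 array against another and carry no test. In C2 and in C3, 36 of the 56 lower genes belong to 1 group described below. Over all genes, with changes of any size, 52.5% were higher in C2 and 46.5% in C3.

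**Figure D1:**
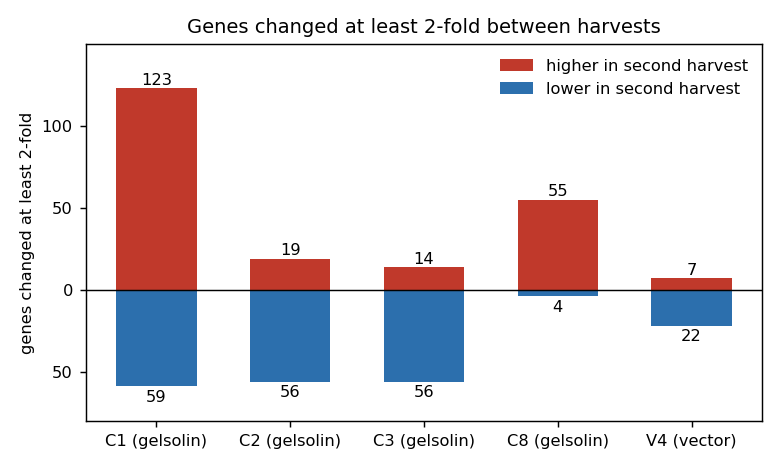
Number of genes at least 2-fold higher (red, above 0) or lower (blue, below 0) in the second than in the first harvest of each line, of 10116 genes tested. C1 has the most genes that are higher (123), C8 has almost none that are lower (4), and V4 has the fewest of both together.

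Tested over the 4 lines as pairs, no gene passed: 0 genes were higher (0%) and 0 lower (0%) at an adjusted p of 0.05 from limma, and the smallest adjusted p was 0.108. At an unadjusted p of 0.05, 684 genes were higher (6.76% of those tested) and 414 lower (4.09%), and under quantile normalization this split was 541 higher and 588 lower. The unpaired fit, which ignores the line, called 0 higher and 1 lower. The median 95% interval of a gene reached 0.25 on the log2 scale to either side of its mean change. The count depended on the lines entered. Without C8 limma called 168 genes higher and 245 lower, and without C2 it called 10 higher and 3 lower.

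The lines did not change alike. Across genes, the log2 changes of C2 and C3 correlated with an r of 0.59, those of C1 and C2 with 0.40 and those of C1 and C3 with 0.36. C8 went its own way, at 0.16 with C1, -0.28 with C2 and -0.12 with C3. With V4 the values were -0.02 for C1, 0.21 for C2, 0.16 for C3 and 0.00 for C8. All the arrays of a harvest share a beadchip, so shared array effects enter these values, which are given without a test. Of all genes, 1154 were higher in all 4 gelsolin lines (11.4%) and 687 lower in all 4 (6.79%).

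Of the gene lists described here, the interferon-stimulated genes had the largest median change in any line, in C1. Interferons act through receptors on the cell surface and switch on genes with an interferon-stimulated response element in their promoters, and the targets restrict viruses and amplify the response. Epithelial cells also keep a low tonic level of these genes without infection. Of 42 listed genes 31 were measured, and their median signal was 224 in the first and 813 in the second harvest of C1, and 258 and 453 in C8. In the other lines the list median moved little, from 257 to 301 in C2, from 174 to 182 in C3 and from 153 to 132 in V4. The V5 array gave 131. The members not measured were not on the array or did not pass the filter on dim probes.

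The promoters of 4 members and of B2M, an interferon-induced gene of antigen presentation, are shown because they hold the letters of this element. The sequences are the 150 bases before 1 annotated start of each gene, from RefSeq with build GRCh38.p14, read 5′ to 3′ on the strand of the gene, in lower case with matches to GAAANNGAAA on either strand in capitals. In ISG15 and B2M the marked stretch holds 2 matches that overlap.
IFI27, chr14:94110586-94110735, plus strand: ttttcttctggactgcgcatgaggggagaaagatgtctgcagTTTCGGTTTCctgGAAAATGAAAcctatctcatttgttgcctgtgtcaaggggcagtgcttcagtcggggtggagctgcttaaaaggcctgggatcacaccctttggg
IFI6, chr1:27672193-27672342, minus strand: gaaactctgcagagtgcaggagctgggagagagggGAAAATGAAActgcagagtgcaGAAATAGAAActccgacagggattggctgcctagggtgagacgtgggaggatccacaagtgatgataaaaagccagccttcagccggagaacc
IFIT1, chr10:89392473-89392622, plus strand: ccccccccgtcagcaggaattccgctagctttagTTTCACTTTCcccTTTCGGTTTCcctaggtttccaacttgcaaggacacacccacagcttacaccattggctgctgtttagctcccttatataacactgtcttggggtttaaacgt
ISG15, chr1:1013347-1013496, plus strand: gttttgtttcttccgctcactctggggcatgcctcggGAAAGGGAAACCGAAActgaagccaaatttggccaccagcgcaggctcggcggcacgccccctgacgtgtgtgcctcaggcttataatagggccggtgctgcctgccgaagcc
B2M, chr15:44711367-44711516, plus strand: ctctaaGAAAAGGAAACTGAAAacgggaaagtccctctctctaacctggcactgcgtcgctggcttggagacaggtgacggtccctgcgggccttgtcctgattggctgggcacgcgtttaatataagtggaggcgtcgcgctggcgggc

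Over the 250 bases before the start, the motif was found in 17 of the 26 measured list members that matched a promoter in the table, and in 3.71% of all 27305 genes there (3.02% of 35116 promoters). A match is a description of these letters and not evidence of binding.

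IFI6, an interferon-induced membrane protein of mitochondria and endoplasmic reticulum, had a signal that went from 2217 to 13924 in C1, from 3426 to 4366 in C2, from 1981 to 2085 in C3 and from 2603 to 9801 in C8. V4 gave 1143 and 804. The second harvests of C1 and C8 stood above every other array, while C2 and C3 changed little. IFI27, the most strongly changed gene of C1, went from 68 to 901 in C1, from 183 to 301 in C2, from 63.5 to 67.5 in C3 and from 73.1 to 197 in C8, with V4 at 55.9 and 61. The first harvests of C1, C3 and C8 were near the level of V4, and the first harvest of C2 was already above them. Those of C1, C3 and C8 and both V4 arrays were dim for IFI27, below the common median, so their likeness is that of dim signals.

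IFIT1, which binds viral RNA that lacks 2′-O-methylation, went from 151 to 896 in C1, from 306 to 319 in C2, from 144 to 166 in C3 and from 258 to 551 in C8. ISG15, a ubiquitin-like modifier, went from 3043 to 12549 in C1, from 4459.9 to 5505 in C2, from 3146 to 2726 in C3 and from 4098 to 5084 in C8. ISG15 was thus higher in C1, C2 and C8 and lower in C3. BST2, which tethers budding virions, went from 223 to 888 in C1, from 194 to 243 in C2, from 142 to 144 in C3 and from 215 to 482 in C8. IRF7, the factor that amplifies interferon transcription, went from 424 to 1698 in C1, from 634 to 648 in C2, from 360.4 to 433 in C3 and from 436 to 994 in C8. For both genes the C1 and C8 second harvests were the highest of all arrays, and the change in C2 and C3 was small.

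**Figure D2:**
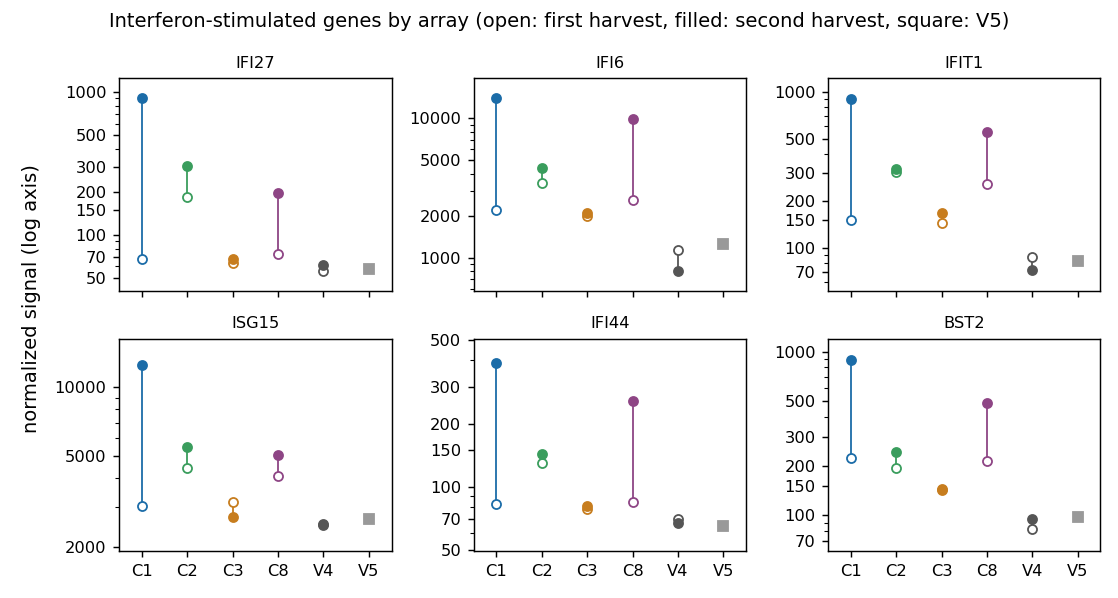
Normalized signal (log axis) of 6 interferon-stimulated genes in each array, with open circles for the first and filled circles for the second harvest of a line and a square for the single V5 array. The filled circles of C1 and, except for ISG15, of C8 lie far above the open ones, while the distances in C2, C3 and V4 are shorter.

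Of the 31 measured members, 23 were at least 2-fold higher in the second harvest of C1 and 7 in that of C8, against 0 in C2, C3 and V4, where 1.22% of all genes in C1 and 0.544% in C8 passed this limit. All 31 were higher in C1 and 26 in C8, as were 58.1% and 55.5% of all genes. In all 4 gelsolin lines 15 were higher and 0 lower, where 11.4% of all genes were higher. None passed the adjusted threshold over the 4 lines. IFI27 had a mean log2 change of 1.49 (SE 0.62, adjusted p = 0.482), and its line differences ran from 0.09 in C3 to 3.73 in C1. IFI35 had the smallest p of the list, with 0.64 (SE 0.18, adjusted p = 0.294). The median log2 change of the list was 1.51 in C1, 0.06 in C2, 0.03 in C3, 0.43 in C8 and -0.08 in V4, against 0.06 for all genes in C1 and 0.03 in C8.

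Markers of leukocytes were summed over the 9 of them on the array, and the sum differed between the harvests of C1, C3 and C8. It went from 1210.4 to 1552 in C1, from 701 to 693 in C2, from 776 to 1113 in C3 and from 885 to 1280.2 in C8. The differences came mainly from CD68, a lysosomal protein that epithelial cells also express, which went from 686 to 1034 in C1, from 226 to 211 in C2, from 303 to 605 in C3 and from 379.6 to 732 in C8. LYZ, the lysozyme gene and the other leukocyte marker that passed the filter, was dimmer and went from 82.1 to 112 in C1, from 65.3 to 70.2 in C2, from 63.5 to 81.6 in C3 and from 85.8 to 147 in C8, so that C1, C3 and C8 were higher for both. Of these 2 markers both had an unadjusted p under 0.05 and neither passed the adjusted test. PTPRC, the defining leukocyte marker, stayed between 66.6 and 77.6 on all arrays, below the common median, and so did the other 6 markers on the array. The part of CD68 and LYZ in the interferon result was not tested.

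Genes of class I antigen presentation, which display peptides to T cells and are induced by interferon, were also mostly higher in the second harvests. Of 11 measured genes 8 were higher in the second harvest of all 4 gelsolin lines and 0 lower, against 11.4% and 6.79% of all genes. The list medians were 0.67 in C1, 0.10 in C2, 0.23 in C3, 0.39 in C8 and -0.08 in V4. B2M, the light chain of all class I molecules, went from 8322 to 11304 in C1, from 6055 to 8265 in C2, from 4952 to 7552 in C3 and from 7611 to 10121 in C8, a mean log2 change of 0.48 (SE 0.08, adjusted p = 0.138), with V4 at 4972 and 5442. The second-harvest level was higher in each line, but the groups overlapped. HLA-B went from 1266 to 2843 in C1, from 1122 to 1517 in C2, from 849 to 1099.6 in C3 and from 1493 to 2467 in C8, a mean log2 change of 0.68 (SE 0.13, adjusted p = 0.198). Probes of the HLA genes can share sequence with paralogs, so the split among HLA members is uncertain. TAP1, a subunit of the peptide transporter, went from 1275 to 2109 in C1, from 1173 to 1181 in C2, from 1098 to 1169 in C3 and from 945 to 1537 in C8. It was clearly higher in C1 and C8 and nearly level in C2 and C3.

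Metallothioneins and the zinc exporter SLC30A1, which bind or remove zinc and are switched on through metal response elements by the factor MTF1, had the next largest list median, again in C1. Their promoters are shown with the metal response element core in capitals (TGCACNC or TGCGCNC on either strand), again as the 150 bases before the start from RefSeq, build GRCh38.p14.
MT1X, chr16:56682320-56682469, plus strand: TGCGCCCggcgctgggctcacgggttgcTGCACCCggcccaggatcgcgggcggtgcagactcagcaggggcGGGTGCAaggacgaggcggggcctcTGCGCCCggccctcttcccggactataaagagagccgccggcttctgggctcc
MT2A, chr16:56608434-56608583, plus strand: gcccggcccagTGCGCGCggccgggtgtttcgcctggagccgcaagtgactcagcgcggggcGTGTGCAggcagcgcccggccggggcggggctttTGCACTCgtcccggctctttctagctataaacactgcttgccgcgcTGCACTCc
SLC30A1, chr1:211579162-211579311, minus strand: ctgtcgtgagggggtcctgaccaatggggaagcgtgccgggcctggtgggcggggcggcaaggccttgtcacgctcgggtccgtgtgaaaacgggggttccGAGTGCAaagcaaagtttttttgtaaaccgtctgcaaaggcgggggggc

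The core is short and common, and was found over 250 bases in 28.5% of all genes in the table (24.8% of promoters) and in 3 of the 4 measured list members that matched the table. MT1X went from 471 to 2510.3 in C1, from 608 to 1637 in C2, from 830.4 to 1294 in C3 and from 888 to 1019 in C8, and V4 likewise gave 556 and 1047. The difference was largest in C1, then C2, then V4, C3 and C8. MT2A, which encodes the main ubiquitous isoform, went from 5012 to 12894 in C1, from 6207 to 10802 in C2, from 6739 to 8515 in C3 and from 4043 to 5376 in C8, with V4 at 6791 and 8259 and a mean log2 change of 0.73 (SE 0.16, adjusted p = 0.267). SLC30A1 went from 161 to 361 in C1, from 164 to 295 in C2, from 130.4 to 232 in C3 and from 127 to 164 in C8, with V4 at 141 and 160.1 and a mean log2 change of 0.80 (SE 0.13, adjusted p = 0.138). Each line was higher in its second harvest, and the arrays of C1, C2 and C3 above all first harvests.

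Of the 7 measured members of this list, 3 were higher in all 4 gelsolin lines and 0 lower, against 11.4% and 6.79% of all genes. The list medians were 1.03 in C1, 0.51 in C2, 0.12 in C3, 0.20 in C8 and 0.18 in V4. MT1G went from 92.1 to 188 in C1, from 121 to 172 in C2, from 106 to 113 in C3 and from 85.9 to 79.2 in C8. MT1F went from 398 to 508 in C1, from 524 to 556 in C2, from 576 to 619.6 in C3 and from 659 to 601 in C8. MT1E went from 129 to 76.5 in C1, from 77.4 to 84.4 in C2, from 79.5 to 86.3 in C3 and from 69.3 to 74.2 in C8. These 3 were therefore not higher in every line, and the metallothionein genes are close paralogs whose probes may share signal. MTF1 itself went from 213 to 252 in C1, from 224 to 219 in C2, from 244 to 176 in C3 and from 197 to 238 in C8, with no common direction. None of the list passed the adjusted threshold.

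The genes closest to a change common to all 4 gelsolin lines were a mixed set. The 12 genes with the smallest p among those higher in every line had mean log2 changes of 0.48 to 1.08 and adjusted p of 0.108 to 0.189, so none passed. They were HOXB8, SLC30A1, EHF, TAF15, VIM, B2M, RASSF3, LMNB1, GANAB, SYBU, TCEA1 and APP. In 8 of the 12 V4 was also higher, and over all genes in 45.5%. In 3 of the 12 the second-harvest gelsolin arrays all lay above the first, which held for 235 of all genes (2.32%).

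HOXB8, a homeobox factor of the posterior body axis that is expressed in colon, had the smallest p of the 12. It went from 1498 to 2549 in C1, from 1250.1 to 1972 in C2, from 623 to 1861 in C3 and from 1009 to 2535 in C8, a mean log2 change of 1.08 (SE 0.15, adjusted p = 0.108). All 4 second harvests lay above all 4 first harvests, and V4 gave 1077 and 1267 and V5 1289, within the first-harvest range. Neighbours in the HOXB cluster were picked after their values were seen. HOXB9 went from 447 to 1643 in C1, from 533 to 765 in C2, from 358 to 515 in C3 and from 466 to 970.0 in C8. HOXB7 went from 1047 to 1541 in C1, from 978 to 1265 in C2, from 755 to 924 in C3 and from 843 to 1410.0 in C8. Both were higher in all 4 lines, with adjusted p of 0.267 and 0.229. HOXB5 went from 1334 to 1685 in C1, from 1133 to 972 in C2, from 964 to 978 in C3 and from 906 to 2399.6 in C8, so that it was clearly higher in C8 and lower or nearly level in C2 and C3.

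EHF, an ETS factor of epithelial cells, went from 309 to 634 in C1, from 323 to 401 in C2, from 129 to 311 in C3 and from 235 to 536 in C8, a mean log2 change of 0.95 (SE 0.16, adjusted p = 0.138). V4 went the other way, with 162 and 82.5. VIM, the mesenchymal intermediate filament, was dim and went from 119 to 255 in C1, from 62.5 to 85.7 in C2, from 217 to 311 in C3 and from 121 to 259.9 in C8, with V4 at 90.6 and 106 and V5 at 259. It was higher in the second harvest of each line, but the groups overlapped. LMNB1, a component of the nuclear lamina, went from 246 to 527 in C1, from 359 to 616 in C2, from 371 to 479 in C3 and from 194 to 328 in C8, and V4 gave 348 and 299.

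TAF15, an RNA-binding protein of the FET family, went from 3864 to 5158 in C1, from 2629 to 5098 in C2, from 2030.1 to 3481 in C3 and from 2573 to 3531 in C8. V4 was likewise higher, at 2789.5 and 4658, and V5, on the beadchip of the second harvests, gave 5314. TCEA1, a transcription elongation factor, went from 148 to 297 in C1, from 151 to 289 in C2, from 144 to 238 in C3 and from 170.4 to 206 in C8, again with V4 higher, at 236 and 406. APP, the amyloid precursor protein, went from 550.1 to 1215 in C1, from 534 to 719 in C2, from 404 to 859 in C3 and from 498 to 669.9 in C8, with V4 at 495 and 1092. For these 3 genes the vector line moved like the gelsolin lines, and for APP V5 stayed low, at 526.

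GANAB, the catalytic subunit of glucosidase II, went from 919 to 1799.7 in C1, from 751 to 1354 in C2, from 735 to 1337 in C3 and from 577 to 693 in C8, while V4 stayed at 792 and 791. SYBU, a kinesin adaptor, went from 423 to 714 in C1, from 376 to 495 in C2, from 231 to 391 in C3 and from 359.8 to 907 in C8, and V4 gave 309.7 and 207. RASSF3, a member of the Ras association domain family, was dim and went from 83.5 to 120.5 in C1, from 80.7 to 138 in C2, from 69.7 to 120.4 in C3 and from 65.9 to 78.5 in C8. The smallest difference was in C8 for GANAB and RASSF3 and in C2 for SYBU.

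The 12 genes with the smallest p among those lower in every line were SLC6A16, ANKRD30BL, SIGLEC6, LRP1B, IL27, ITGB1BP2, SAT1, PNPLA7, CPOX, POLR1B, ZNF600 and ZNF763. Their mean log2 changes were -0.49 to -0.97, with adjusted p of 0.108 to 0.207, and 7 of them had a mean signal under 2 times the common median. V4 was also lower in 9 of the 12, and over all genes in 54.5%. In 8 the second-harvest gelsolin arrays all lay below the first, as for 112 of all genes (1.11%).

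SLC6A16, an orphan member of the neurotransmitter transporter family, had the smallest p of all genes and went from 93.4 to 63.9 in C1, from 119 to 75.7 in C2, from 159.5 to 87.4 in C3 and from 150.2 to 95.6 in C8, a mean log2 change of -0.68 (SE 0.09, adjusted p = 0.108). V4 gave 82.5 and 90.1, and V5 82.7, close to the second harvests of the gelsolin lines. SLC6A16 was dim, and its second harvests of C1, C2 and C3 lay below the common median. LRP1B, a large lipoprotein receptor, went from 341 to 206 in C1, from 417 to 285 in C2, from 376 to 227 in C3 and from 347 to 233 in C8, whereas V4 stayed dim at 71.6 and 69.9. It was lower in each second harvest without overlap, and still well above V4. SIGLEC6, a sialic acid-binding lectin, went from 134 to 57.5 in C1, from 122 to 52.1 in C2, from 122 to 60.4 in C3 and from 108 to 80.7 in C8, with V4 at 108 and 97.7.

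ANKRD30BL, a gene with ankyrin repeats, went from 146 to 69.9 in C1, from 157 to 92.7 in C2, from 129 to 91.2 in C3 and from 121 to 75.6 in C8, with V4 at 95 and 96.6. IL27, a subunit of a cytokine of the IL-12 family, went from 85.2 to 56.2 in C1, from 95.8 to 57.2 in C2, from 98.4 to 61.5 in C3 and from 139 to 117 in C8, with V4 at 119.9 and 111. Both were dim. IL27 lay below the common median in the second harvests of C1, C2 and C3, and ANKRD30BL in those of C1 and C8. ITGB1BP2, which binds the cytoplasmic tail of integrin beta 1, went from 134 to 94.7 in C1, from 192 to 139 in C2, from 247 to 156 in C3 and from 158 to 105 in C8, with V4 at 144 and 136. PNPLA7, a lysophospholipase, went from 255 to 163 in C1, from 298 to 199 in C2, from 284 to 200.2 in C3 and from 325 to 237 in C8, with V4 at 206 and 203. The 4 lines agreed in direction for all 4 genes, while their levels differed between lines.

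Among brighter genes, SAT1, which acetylates spermidine and spermine for their breakdown, went from 14549 to 8767 in C1, from 12884 to 9050.5 in C2, from 15305 to 12328 in C3 and from 15994 to 12114 in C8, against 22683 and 21349 in V4. CPOX, a mitochondrial enzyme of heme synthesis, went from 4545 to 2809 in C1, from 5846 to 5017 in C2, from 6298 to 4336 in C3 and from 5213 to 3624 in C8, with V4 also lower, at 7965 and 6659.9. POLR1B, the second largest subunit of RNA polymerase I, went from 204 to 122 in C1, from 268 to 157 in C2, from 268 to 148 in C3 and from 188 to 167 in C8. V4 was also lower for POLR1B, at 277 and 195. Among the gelsolin lines the difference in POLR1B was small in C8 and larger in C1, C2 and C3. The zinc finger genes ZNF600 and ZNF763 likewise differed least in C8, with ZNF600 going from 207 to 93.1 in C1, from 213 to 93.3 in C2, from 221 to 124 in C3 and from 189 to 174 in C8.

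**Figure D3:**
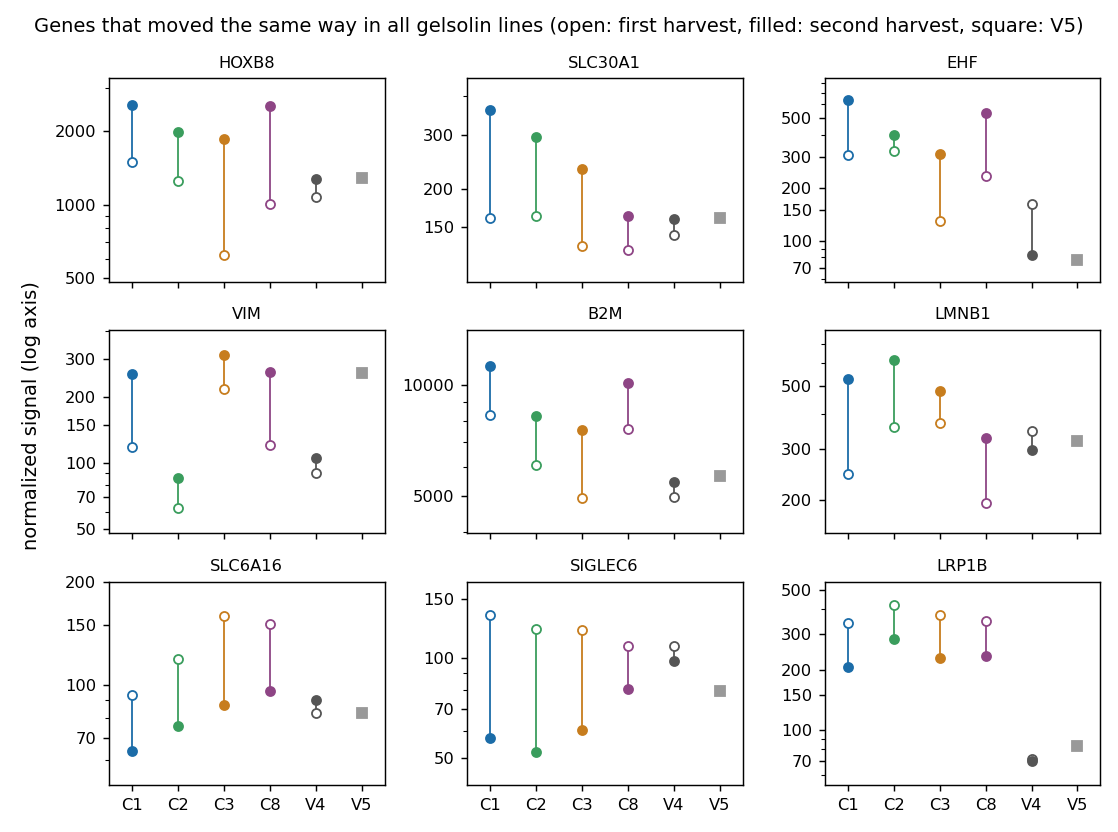
Normalized signal (log axis) of 9 genes that moved the same way in all 4 gelsolin lines, by array, with open circles for the first and filled circles for the second harvest and a square for V5. The second-harvest HOXB8 signals lie above all first harvests of the gelsolin lines, EHF goes the other way in V4, and LRP1B is lower in each gelsolin line but dim and level in V4.

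A group of 36 genes stood out in 3 of the 4 gelsolin lines. All genes at least 2-fold lower in the second harvest of each of C1, C2 and C3 were taken, a choice made after the values were seen, so their levels are given as a description with no test. The median signal of the 36 genes went from 924 to 294 in C1, from 948 to 341 in C2 and from 1015 to 352 in C3. In C8 it was 707 and 916, in V4 715 and 706, and in V5, on the beadchip of the second harvests, 843. The low level was thus confined to 3 of the 11 arrays, and the other 3 arrays on their beadchip ranged from 706 to 916.

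The group made up 36 of the 59 genes at least 2-fold lower in C1, of the 56 in C2 and of the 56 in C3. No gene was at least 2-fold lower in any other set of 3 gelsolin lines, and 1 gene was at least 2-fold higher in C1, C2 and C3 and 1 in C1, C3 and C8. Within the group the log2 changes ran from -2.07 to -1.13 in C1, from -2.01 to -1.01 in C2 and from -2.16 to -1.01 in C3. In C8 they ran from -0.42 to 0.71, with 10 of 36 below 0. In V4 13 of 36 were below 0, and only CEP152, a centriole protein, changed 2-fold there.

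ZNF14, a zinc finger gene of chromosome 19, went from 6647 to 1632 in C1, from 7989 to 1977 in C2, from 7828 to 1748 in C3 and from 5465 to 7263 in C8, with V4 at 5531 and 5438. SLC25A51, the mitochondrial NAD carrier, went from 7794 to 2106 in C1, from 9185 to 2428 in C2, from 8684 to 2573 in C3 and from 6069.8 to 8972 in C8, with V4 at 5625 and 6793. C8 and V4 showed no such drop, and the lower signals of both genes in C1, C2 and C3 remained far above the common median. AHR, the aryl hydrocarbon receptor, went from 6373 to 2112 in C1, from 5636 to 2415 in C2, from 5698 to 2553 in C3 and from 5172 to 6057 in C8. MCM8, a helicase of homologous recombination, went from 9118 to 2523 in C1, from 7852 to 3515 in C2, from 8608 to 3485 in C3 and from 7679 to 8504 in C8. All first harvests were high for both, and so was the second harvest of C8. CLOCK, the circadian transcription factor, went from 279 to 93.2 in C1, from 416 to 107 in C2, from 364 to 106 in C3 and from 652 to 547 in C8. The first-harvest level of CLOCK differed between lines.

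HSD17B7, a cholesterol synthesis enzyme, went from 2883 to 889 in C1, from 3139 to 1049 in C2, from 3417 to 974 in C3 and from 2516 to 3216 in C8. Its pseudogene HSD17B7P2 went from 780.0 to 263 in C1, from 875 to 289 in C2, from 902 to 286 in C3 and from 574 to 922 in C8, but the 2 probes may share signal. FARSB, a subunit of phenylalanyl-tRNA synthetase, went from 332 to 114 in C1, from 273 to 118 in C2, from 299 to 121 in C3 and from 271 to 259 in C8. Further members were FAM200A, LMOD3, ALPP, USP49, ZNF223, SLC5A8, HACD4, MINDY1, EVI5, HAUS2, PBLD, MAGT1, ZNF786, RNF213, TDRD1, DNM1P46, ZNF93, RAX2, GALNT3 and SIGLEC6, and 7 of the 36 have no gene symbol in the annotation. Of the 29 with a symbol, 4 are named as zinc finger genes and 5 lie on chromosome 19, with the other members on 13 further chromosomes. For MCM8, PBLD, MINDY1 and ZNF93 the array carries a dimmer probe. These 4 probes lay near or below the common median and changed by a log2 of -0.26 to 0.07 in C1, C2 and C3, at levels where a drop could not be read.

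Members just inside the limit were ZNF93, with its weakest log2 change at -1.01, and SIGLEC6, at -1.01. Just outside were a probe without a symbol, at -0.999, DNAJC28, at -0.977, and EIF2AK4, at -0.974, with C8 changes of 0.17 and 0.25. Under quantile normalization 38 genes met the same limit, 35 of them among the 36, and under cyclic loess 40, with all 36 among them. With an offset of 50 before log2 the number was 28. At 1.5-fold, 74 genes were lower in C1, C2 and C3, against 2 in C1, C2 and C8, 1 in C1, C3 and C8, and 1 in C2, C3 and C8. All 36 genes were among those that limma called once C8 was left out, which the choice of the genes makes likely.

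**Figure D4:**
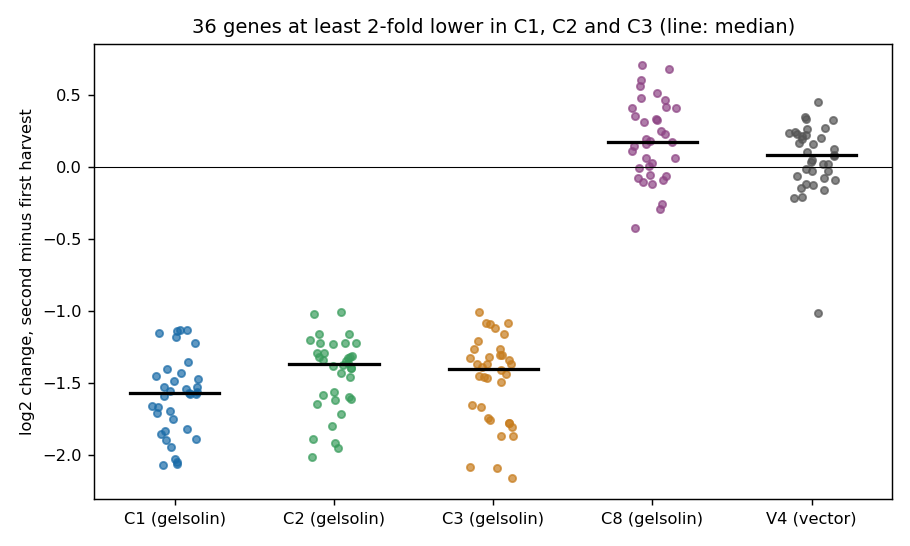
Log2 change from the first to the second harvest of the 36 genes chosen for being at least 2-fold lower in C1, C2 and C3, with 1 point per gene and a bar at the median. The medians are -1.57, -1.37 and -1.40 in C1, C2 and C3, 0.18 in C8 and 0.08 in V4, and the single low point in V4 is CEP152.

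In the opposite direction, 18 genes were at least 1.5-fold higher in each of C1, C2 and C3, and 17 of them stayed below that limit in C8, where 9 were lower. V4 was higher in 15 of the 18, and over all genes in 45.5%. CCDC71 was the 1 gene at least 2-fold higher in all 3 lines and went from 186 to 521 in C1, from 177 to 552 in C2, from 117 to 332 in C3 and from 183 to 113 in C8, with V4 at 163 and 247. For this gene C8 moved against the other gelsolin lines and against V4. CTSZ, a lysosomal protease, went from 266 to 821 in C1, from 422 to 711 in C2, from 269 to 576 in C3 and from 248 to 249 in C8. PYCR1, an enzyme of proline synthesis, went from 828 to 1577 in C1, from 892 to 1455 in C2, from 798 to 1219 in C3 and from 1086 to 969 in C8. C8 was level for the former and slightly lower for the latter.

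C1 had changes of its own. Genes of the amino acid response, which ATF4 induces when amino acids or unfolded proteins call for it, had median log2 changes of 0.98 in C1, 0.01 in C2, 0.25 in C3, 0.05 in C8 and 0.11 in V4. Of 24 measured genes, 23 were higher in the second harvest of C1, 8 in all 4 gelsolin lines and 0 lower in all 4. Over all genes these shares were 58.1%, 11.4% and 6.79%. ASNS, which makes asparagine, went from 4665 to 11439 in C1, from 6713 to 8244 in C2, from 4966 to 6439 in C3 and from 6722 to 6158 in C8, with V4 at 12274 and 12057. TRIB3, an ATF4-induced pseudokinase, went from 1444 to 4283 in C1, from 2133 to 2131 in C2, from 1354 to 2351 in C3 and from 1693 to 1749.5 in C8, with V4 at 5463 and 5879. In the first harvest all 24 genes were lower in C1 than in V4, and for 23 of them the second harvest of C1 was nearer to the mean of V4 than the first was. No share over all genes is at hand for these counts. The low start was not particular to C1. The list median of the first harvest was 1107 in C1, 1380.5 in C2, 1252 in C3 and 1431 in C8, against 3642 in V4. PSAT1, of serine synthesis, went from 1209 to 3633 in C1, from 1443 to 1777 in C2, from 1410.2 to 1954 in C3 and from 1438 to 1702 in C8, a mean log2 change of 0.65 (SE 0.22, adjusted p = 0.383), and no gene of this list passed the threshold.

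LCN2, a siderophore-binding protein of inflamed epithelium, was among the largest changes of C1 and went from 256 to 2376 in C1, from 228 to 225 in C2, from 200.04 to 309 in C3 and from 472 to 532 in C8. V4 gave 1428 and 1387 and V5 325, so the second harvest of C1 alone among the gelsolin arrays was above V4. CXCL8, a chemokine for neutrophils, went from 497 to 1457 in C1, from 111 to 164 in C2, from 146 to 228 in C3 and from 166 to 544 in C8 and was also higher in V4, with 314 and 732. Immediate early genes, which respond to serum at once, had list medians of -0.38 in C1, 0.21 in C2, 0.10 in C3, -0.03 in C8 and 0.11 in V4. Of 25 measured, 4 were higher in all 4 gelsolin lines and 1, EGR1, lower, against 11.4% and 6.79% of all genes. KLF10, a zinc finger repressor, went from 241 to 525 in C1, from 190.2 to 357 in C2, from 200.4 to 223 in C3 and from 251 to 256 in C8, a mean log2 change of 0.55 (SE 0.19, adjusted p = 0.359). V4 was also higher for KLF10, at 291 and 388. EGR1 went from 5837 to 4477 in C1, from 3896 to 3765 in C2, from 3845 to 2510.0 in C3 and from 2729 to 2703 in C8 and was nearly level in C2 and C8.

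The genes with the largest increases in C8 were RGS5, SGK1, RGS4, IFI6 and CEACAM1. RGS5, which switches off G proteins, went from 119 to 229.6 in C1, from 67 to 76.5 in C2, from 59.2 to 68.6 in C3 and from 61.8 to 423 in C8. Its relative RGS4 went from 93.7 to 148 in C1, from 96.4 to 97.1 in C2, from 80.7 to 81.4 in C3 and from 76.5 to 298 in C8. SGK1, a kinase downstream of glucocorticoids and PI3K, went from 379 to 669 in C1, from 149 to 168 in C2, from 341 to 349 in C3 and from 136 to 587 in C8, with V4 at 236 and 351. RGS5, RGS4 and SGK1 were also higher in the second harvest of C1. RGS5 and RGS4 were dim in the first harvest of C8, below the common median. CEACAM1, an adhesion molecule that interferon induces, went from 113 to 327 in C1, from 207 to 185 in C2, from 141 to 133 in C3 and from 132 to 494 in C8. Only 4 genes were at least 2-fold lower in C8, namely MEF2C, PRKACB, CDKAL1 and FKBP5. MEF2C, a transcription factor, went from 86.8 to 101 in C1, from 118 to 102 in C2, from 124 to 131 in C3 and from 306 to 133 in C8. FKBP5, a glucocorticoid-induced chaperone, went from 573 to 468 in C1, from 928 to 711 in C2, from 762 to 588 in C3 and from 729 to 362 in C8, lower in all 4 gelsolin lines, with a mean log2 change of -0.52 (SE 0.14, adjusted p = 0.276). V4 was lower for FKBP5 as well, at 577 and 422, a log2 change of -0.45. Of the 123 genes at least 2-fold higher in C1 and the 55 in C8, 20 were shared, which is 16.3% of the first list and 36.4% of the second. Over all genes, 1.22% reached this limit in C1 and 0.544% in C8. A gene could pass the filter on dim probes through C1 and C8 alone, as RGS5 did, which favours shared genes.

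C2 and C3 had few large changes beside the group of 36. In C2 the largest increases among genes with a symbol were those of CCDC71, MT1X and ASPH, an aspartyl hydroxylase of the endoplasmic reticulum, which went from 359 to 471 in C1, from 193 to 479 in C2, from 184 to 270.2 in C3 and from 257 to 302 in C8. In C3, TNFRSF6B, a decoy receptor for FAS ligand, went from 1278 to 1946 in C1, from 403 to 479.9 in C2, from 268 to 1018 in C3 and from 735 to 1113 in C8. ANKRD1, a target of YAP, went from 60.1 to 102 in C1, from 55.6 to 53.6 in C2, from 96 to 276 in C3 and from 142 to 127 in C8. TM4SF18, a tetraspan protein, went from 76.6 to 179.6 in C1, from 53.2 to 51.6 in C2, from 79.5 to 255 in C3 and from 471 to 336 in C8. ANKRD1 and TM4SF18 were thus higher in C1 and C3 and lower in C8, for ANKRD1 only slightly. In C2 both were nearly level and below the common median.

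Genes of G2 and mitosis were lower in V4 and higher in C8. All 34 measured were lower in the second harvest of V4, as were 54.5% of all genes, and 33 were higher in C8, as were 55.5% of all genes. The list medians were 0.20 in C1, -0.03 in C2, -0.07 in C3, 0.42 in C8 and -0.72 in V4. CCNA2, the cyclin of S and G2 phase, went from 867 to 1110.3 in C1, from 984 to 1385 in C2, from 1202 to 1344 in C3 and from 664 to 913 in C8, and V4 gave 1048 and 581. AURKB, a mitotic kinase, went from 1128 to 1356 in C1, from 1126 to 1268 in C2, from 1259 to 1282 in C3 and from 678 to 943 in C8, with V4 at 1094 and 594. Both genes were higher in the second harvest of all 4 gelsolin lines and lower in that of V4, but limma called the difference from V4 for neither. The S phase list did not show this opposition and had medians of -0.22 in C1, 0.13 in C2, -0.14 in C3, -0.11 in C8 and -0.40 in V4, and core histone genes 0.25 in C1, 0.32 in C2, 0.13 in C3, 0.37 in C8 and 0.04 in V4.

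No member of any of the 43 gene lists passed the adjusted threshold over the 4 lines. Lists with a median log2 change of at least 0.2 over the gelsolin lines, beside those described and apart from lists with under 3 measured genes, were the YAP and SRF targets, with 0.38 in C1, 0.38 in C2, 0.27 in C3, -0.04 in C8 and 0.09 in V4, the endoplasmic reticulum chaperones, with 0.29 in C1, -0.06 in C2, 0.17 in C3, 0.25 in C8 and 0.36 in V4, and the core histone genes given above. The urokinase system had 0.45 in C1, 0.12 in C2, 0.22 in C3, 0.16 in C8 and 0.02 in V4. Ribosomal and respiratory chain genes had medians close to 0. The 58 cytosolic ribosomal proteins had -0.14 in C1, 0.11 in C2, 0.10 in C3, -0.10 in C8 and -0.04 in V4, and the 51 subunits of oxidative phosphorylation -0.02 in C1, 0.17 in C2, 0.11 in C3, -0.16 in C8 and -0.13 in V4. The actin filament regulators, to which GSN belongs, had 0.11 in C1, 0.13 in C2, 0.00 in C3, -0.01 in C8 and -0.06 in V4, with 3 of 24 higher and 1 lower in all 4 gelsolin lines. Over all genes these shares were 11.4% and 6.79%.

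Within these lists some members stood out. CCN2, a matricellular target of YAP, went from 918 to 1275 in C1, from 254 to 476 in C2, from 765 to 1497 in C3 and from 957 to 1181 in C8, a mean log2 change of 0.66 (SE 0.13, adjusted p = 0.198), with V4 at 242 and 235. TAGLN, an actin-binding SRF target of the same list, went the other way, from 222 to 171 in C1, from 219 to 162 in C2, from 263 to 198 in C3 and from 245 to 218 in C8. PLAT, the tissue plasminogen activator, went from 205 to 391 in C1, from 162 to 182 in C2, from 164 to 223 in C3 and from 227 to 487 in C8, and was thus higher in C1 and C8 above all. PLAU, the urokinase gene, went from 3181 to 5276 in C1, from 2422 to 2129 in C2, from 1307 to 1779 in C3 and from 2129 to 2407 in C8, with V4 at 3515 and 2710.5, and had no common direction. Its receptor gene PLAUR went from 657 to 1136 in C1, from 697 to 651 in C2, from 469.6 to 501 in C3 and from 529.8 to 582 in C8.

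Several lists moved mainly in C1. The medians there were 0.54 for ERK feedback genes and EGFR ligands, 0.46 for keratins, 0.44 for NF-kB targets and chemokines and 0.36 for aminoacyl tRNA synthetases, against 0.06 for all genes. SPRY2, a feedback inhibitor of receptor tyrosine kinases, went from 209 to 349 in C1, from 154 to 175 in C2, from 225 to 288 in C3 and from 204 to 404 in C8. CXCL1, a chemokine induced by NF-kB, went from 176 to 536 in C1, from 128 to 131 in C2, from 131 to 171 in C3 and from 144 to 294 in C8. Both were higher in C1 and C8 above all, as was CXCL8. KRT80, a type II keratin, went from 414 to 1656 in C1, from 824 to 855 in C2, from 616 to 746 in C3 and from 817 to 839 in C8, while V4 was lower in its second harvest, at 603 and 303. The hypoxia response and core histone lists did not move mainly in C1, with medians of 0.08 and 0.25 there and 0.13 and 0.37 in C8. P4HA1, a collagen prolyl hydroxylase that hypoxia induces, went from 692 to 1193 in C1, from 452 to 514 in C2, from 359 to 519 in C3 and from 426 to 782 in C8, a mean log2 change of 0.60 (SE 0.13, adjusted p = 0.229). H2AC6, a histone gene, went from 247 to 347 in C1, from 192 to 288 in C2, from 147 to 214 in C3 and from 171 to 227 in C8, and V4 moved alike, at 145 and 227.

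**Figure D5:**
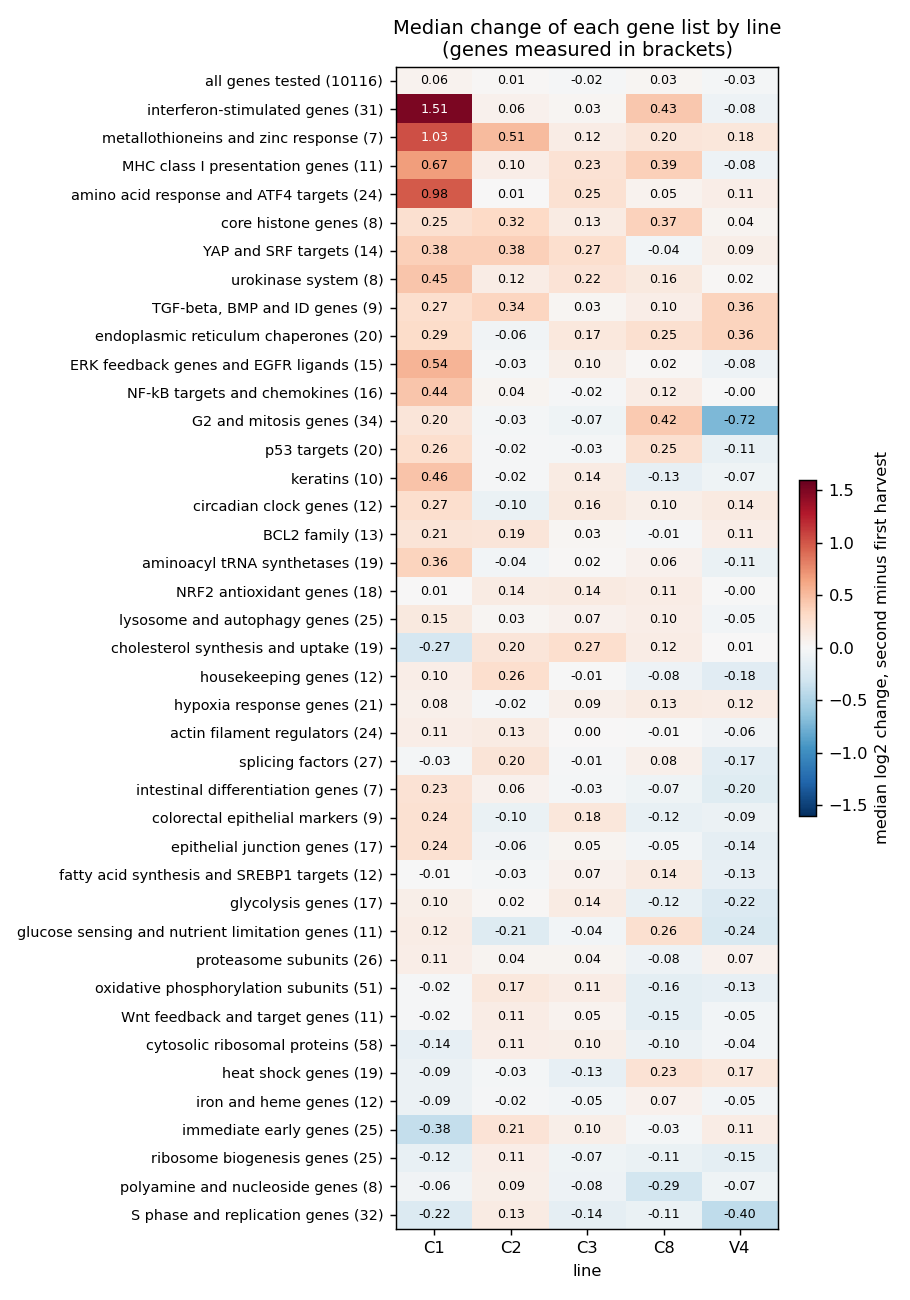
Median log2 change from the first to the second harvest of each gene list with at least 5 measured genes (rows, number measured in brackets) in each line (columns), with all genes tested in the top row. The strongest values are those of the interferon-stimulated genes (1.51), the metallothionein list (1.03) and the ATF4 list (0.98) in C1, and of the G2 and mitosis genes in V4 (-0.72).

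The change of the 4 gelsolin lines was then compared with that of V4, whose arm is 1 difference between 2 arrays, assumed to vary like those of the gelsolin lines. At an adjusted p of 0.05 from limma 1 gene of 10116 differed (0.00989%), with 465 at an unadjusted p of 0.05. This gene was ALDH1A3, which oxidizes retinal to retinoic acid. It went from 4308 to 4775 in C1, from 3535 to 3764 in C2, from 3148 to 4655 in C3 and from 5878 to 6423 in C8, while V4 went from 3843 to 966, a difference of the log2 changes of 2.23 (SE 0.23, adjusted p = 0.0213). The call was lost with plain eBayes and without C1. V5 gave 829, near the second harvest of V4, so the first harvest of V4 was the 1 vector array at the level of the gelsolin lines.

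The next genes by p did not pass. DKK1, a secreted Wnt inhibitor, went from 11084 to 10894 in C1, from 10632 to 11863 in C2, from 10480.5 to 11190.5 in C3 and from 10245 to 11774 in C8, with V4 at 5540.2 and 2524 (adjusted p = 0.237 for the difference from V4). ANXA1, an anti-inflammatory annexin, went from 6794 to 10267 in C1, from 8978 to 10208 in C2, from 6579 to 8866 in C3 and from 8058 to 8270.2 in C8, with V4 at 14887 and 7729. SYTL3, of vesicle transport, went from 922 to 1266 in C1, from 987 to 916 in C2, from 862 to 1371 in C3 and from 1010.3 to 1217 in C8, with V4 at 1496 and 623. V4 was lower in its second harvest for all 3 genes, and most gelsolin lines were level or higher. EHF, described above, was the other gene among the 5 with the smallest p (adjusted p = 0.482). For the interferon-stimulated genes no difference from V4 passed the threshold, with IFI6 at 1.76 (SE 1.08, adjusted p = 0.988). Leaving out C8 raised the count of genes that differed from V4 from 1 to 68, leaving out C2 gave 2, and leaving out C1 lowered it to 0.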

How the data were processed

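Total RNA of 11 HCT116 cultures was measured on Illumina HumanRef-8 beadchips, read with BeadStudio. The deposited intensity values are average bead signals on a linear scale (20596 probes), with no normalization between arrays. The deposited ratio values, for which the authors divided each array by its 50th percentile, differed from the values below by a constant per probe and were not used further. The median signal of an array is given as a range in the report, and the number of arrays limits the precision.

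Intensities were divided by the array median, multiplied by the common median (88.35) and put on the log2 scale. A probe was kept where at least 2 of the 5 lines with both harvests had a mean above the common median (10563 probes). The brightest probe represented a gene (10116 tested). Symbols come from the platform annotation, of which 18389 probes have 1, 0 several and 2207 none, and 18369 were updated through gene identifiers. The change of each line was tested over lines with limma 3.58.1 in R 4.3.3 (lmFit, eBayes with trend and robust), and every adjusted p is two-sided, from it, by Benjamini and Hochberg over all genes. The script was tested on simulated data. Pairing follows the line: deviations from the harvest mean correlated at 0.13 to 0.41 within lines and -0.29 to 0.07 between them. That mean is taken over the same 4 lines, which by itself pushes the values between lines down when those within lines are positive. The named genes are GSN, the 12 smallest p in each direction among genes that moved one way in all 4 lines (none passed), the 5 largest changes in each direction per line, the 5 smallest p against V4 and up to 4 members per list, and some further genes are named as examples. The members and the 43 lists were chosen with earlier results of these data known, and the lists were written from textbook knowledge. The alternatives were quantile, normexp with an offset of 50 and quantile, cyclic loess, an offset of 50 before log2, no filter, a stricter filter (2 times the limit), plain eBayes, no pairing, each line left out, V4 added and, chosen after seeing the data, every probe.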

Additional observations from a re-analysis of the deposited data

Results flagged for a closer look

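Of 69 sets of 4 line differences (GSN, the 24 genes nearest to a common change, the 43 list medians and the group of 36 genes), 3 held 1 line far from the others by Dixon's criterion, where chance gives about 1 in 20. GANAB changed by a log2 of 0.26 in C8 and by 0.97, 0.85 and 0.86 in C1, C2 and C3. The fibroblast list, of which COL1A1 was the only measured member, changed by -0.56 in C1 and by -0.18, -0.22 and -0.21 in C2, C3 and C8. The median of the 36 genes was 0.18 in C8 against -1.57, -1.37 and -1.40, which the choice of these genes fixes. ALDH1A3 had a log2 change that was 2.23 higher in the gelsolin lines than in V4 by limma's test of the difference, in which the spread of the single V4 difference is borrowed from the gelsolin lines. The call was lost under plain eBayes, and the first V4 array (3843) stood apart from the second (966) and from V5 (829).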

How the results depend on the processing

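The count of genes at an adjusted p of 0.05 stayed at 0 in both directions under quantile normalization, normexp with quantile, cyclic loess, an offset before log2, the stricter filter, plain eBayes, V4 added to the pairs and every probe tested. Without a filter 10 genes were called higher and 10 lower. Without the pairing (no replicate block) 0 were higher and 1, SIGLEC6, lower. With 1 line left out at a time the counts ran from 0 to 168 higher and from 0 to 245 lower, and the high ends were reached without C8. These fits rest on 3 lines, and the cause was not tested. The GSN change stayed between 0.05 and 0.11 with adjusted p from 0.617 to 0.953. The 1 gene that differed from V4 became 0 under plain eBayes, and 0 to 68 with 1 line left out, of which 68 was without C8. The median correlation between the changes of gelsolin lines, 0.26 in the main setting, ran from -0.12 without C1 to 0.40 without C8 with 1 line left out and stayed within its spread under the other alternatives. None of the 24 genes reversed under any alternative in which it was tested, but most alternatives could not have reversed them. The genes were chosen for moving one way in every gelsolin line, so leaving 1 line out cannot turn the mean. Changing the filter, plain eBayes and dropping the pairing leave the mean change as it is, and an offset before log2 keeps the direction of each line. Only quantile normalization, normexp with quantile, cyclic loess and the addition of V4 could have reversed a gene. All 24 passed without C8, 15 without a filter, 6 without C2 and 1 without the pairing. Quantile normalization gave 541 genes higher and 588 lower at an unadjusted p of 0.05, against 684 and 414 in the main setting. The number of lines, the background left in the signals and the coincidence of harvest and beadchip limit all of these comparisons.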
